A study of Homo sapiens with 23 samples.

Results

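The surface targets described here are 8 membrane proteins against which imaging agents, antibody conjugates or cell therapies have been made, followed by the messenger RNA of their genes FOLH1, STEAP1, STEAP2, PSCA, CD276, DLL3, CEACAM5 and TMEFF2. These 8 genes were taken by name from 60683 gene identifiers in the LNCaP table, and all 8 were found in each of 3 count tables. The libraries come from LNCaP and LAPC4 cells with the transcription factor gene ONECUT2 (OC2), a member of the CUT-homeodomain class, raised or lowered. Both are androgen-sensitive human prostate cancer cell lines. LNCaP was grown in RPMI-1640 with serum, and every LAPC4 group was grown in IMDM with serum and the synthetic androgen R1881 at 1 nM. LNCaP cells labelled OC2 OE (overexpression, 2 libraries) stood beside cells labelled control (2), and cells with the hairpin labelled shOC2 (2) beside cells with the hairpin labelled shCon (2). LAPC4 OC2 OE (3 libraries) stood beside LAPC4 with vector (3). In a drug experiment, LNCaP received vehicle, the androgen receptor antagonist enzalutamide at 10 µM, or enzalutamide at 10 µM with an OC2 inhibitor at 10 µM (the combination), for 7 days and with 3 libraries each. An arm with the OC2 inhibitor alone was not analysed here. No source used here gives the promoter of the overexpression construct, the hairpin sequences or whether lines were clonal.

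FOLH1 encodes prostate-specific membrane antigen (PSMA), a zinc carboxypeptidase with a large extracellular domain that binds radioligands for imaging and therapy, and its transcription is known to rise when androgen receptor signalling is blocked. STEAP1 and STEAP2 are multi-pass membrane proteins of a metalloreductase family, and STEAP1 lacks the reductase domain of its relatives. PSCA and CEACAM5 are held in the membrane by a lipid anchor, CD276 (B7-H3) is an immune checkpoint ligand, DLL3 is an inhibitory Notch ligand of neuroendocrine tumours, and TMEFF2 is a transmembrane protein with follistatin-like and EGF-like domains.

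The 23 libraries held 20964025 to 23272088 counts in the LNCaP table, 28586064 to 30465978 in the LAPC4 table and 22615580 to 28241076 in the drug table. ONECUT2 was higher or lower as the labels say, at 304 to 332 CPM (counts per 1000000 counts of the library) in LNCaP OC2 OE against 24.6 to 30.7 in control, 805 to 968 in LAPC4 OC2 OE against 13.3 to 17.1 in vector, and 12.1 to 12.2 in shOC2 against 20.4 to 21.2 in shCon. In the drug table ONECUT2 stood at 14.1 to 17.0 CPM in vehicle, 20.8 to 30.3 with enzalutamide and 13.3 to 16.0 with the combination. It was 1.64-fold higher with enzalutamide than with vehicle (edgeR adjusted p = 0.00139) and 1.82-fold lower in the combination than with enzalutamide (adjusted p = 0.000528), while combination and vehicle did not differ past the test (adjusted p = 0.44). Of 13 luminal prostate epithelium markers, 12 or 13 reached 1 CPM in every group. The summed level of 16 stromal, endothelial and blood markers ran from 7.58 to 57.0 CPM over all libraries. The control and shCon libraries are both LNCaP without raised OC2, yet 56.4% of 16790 tested genes differed between them (28.3% higher and 28.1% lower in shCon), so LNCaP OC2 OE is given against both. ONECUT2 itself was 1.33-fold lower in shCon than in control (edgeR adjusted p = 0.0127), a call that ended with no filter on low counts (adjusted p = 0.0711). Of the 7 targets tested in shCon against control, 5 were called, FOLH1 and TMEFF2 higher and STEAP2, PSCA and DLL3 lower. Without control replicate 1, 3 were called, as FOLH1 (adjusted p = 0.0787) and DLL3 (adjusted p = 0.0821) no longer passed, and FOLH1 was also lost without control replicate 2 or shCon replicate 1 (adjusted p = 0.0518 and 0.0975). The labels do not say whether replicates were separate cultures, so p-values measure the spread between these libraries, which may be technical. In bulk RNA, fewer cells with a transcript and less transcript per cell cannot be told apart.

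Read per merged exon length, FOLH1 and STEAP1 were the most abundant of the 8 in LNCaP, and PSCA and CD276 in LAPC4. This order depends on the length used, 8715 exon bases for STEAP2 and 1625 for STEAP1. The length of the transcripts expressed was not determined. In CPM, STEAP2 led LNCaP control at 993, above FOLH1 at 718 and STEAP1 at 307, while FOLH1 led LNCaP vehicle by either measure. In LAPC4 vector, CD276 and FOLH1 stood above PSCA in CPM. In LNCaP control, STEAP1 stood at 189 ± 2.60 CPM per kilobase of exon (SD, n = 2) and FOLH1 at 188 ± 5.66, which did not differ beyond their spread. STEAP2 followed at 114 ± 1.33, CD276 at 33.7 ± 2.92, DLL3 at 9.22 ± 1.86, PSCA at 5.86 ± 0.718 and TMEFF2 at 0.224 ± 0.0232 CPM per kilobase, with CEACAM5 at 0 counts. The order in LNCaP vehicle began with the same 4 genes, FOLH1 at 236 ± 11.4, STEAP1 at 169 ± 7.07, STEAP2 at 82.1 ± 1.76 and CD276 at 47.2 ± 0.465 CPM per kilobase (n = 3), but TMEFF2 came next at 34.2 ± 1.62. LAPC4 vector carried PSCA at 34.0 ± 4.11 and CD276 at 31.8 ± 0.507 CPM per kilobase (n = 3), which did not differ beyond the spread of PSCA. FOLH1 came next at 26.8 ± 1.92, STEAP1 stood at 10.2 ± 0.928, TMEFF2 at 2.94 ± 0.649 and STEAP2 at 0.847 ± 0.0879. CEACAM5, at 0.0548 ± 0.0115, and DLL3, at 0.0525 ± 0.0343, closed the LAPC4 order and did not differ beyond their spread. The tables were scaled separately, so these levels across lines are set side by side without a test.

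**Figure D1:**
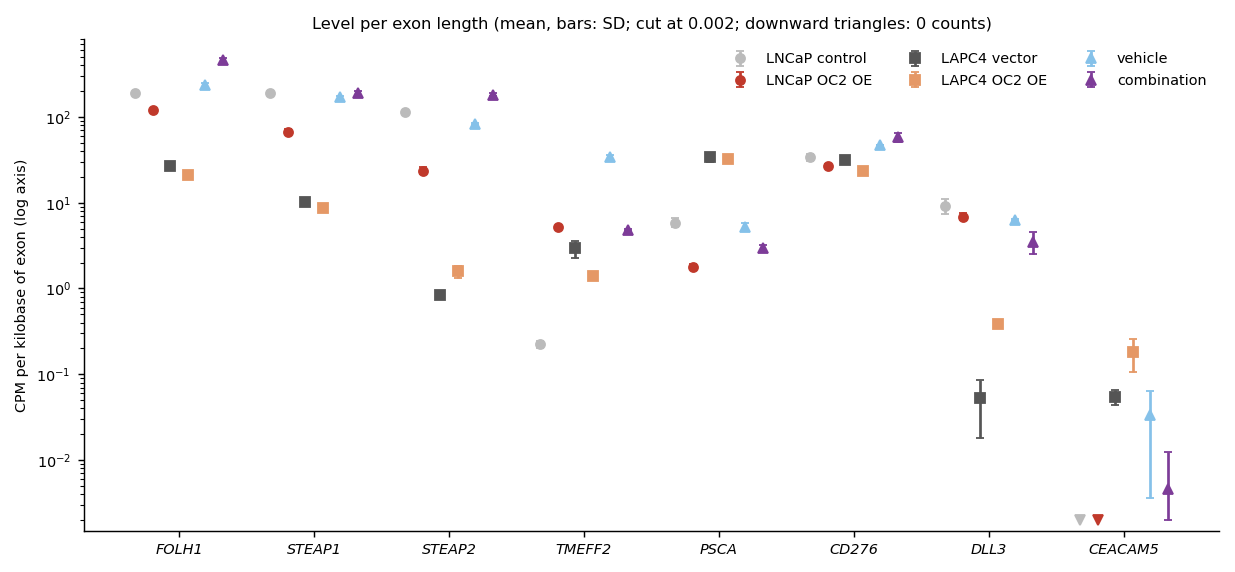
Level of each surface target per kilobase of exon (log axis) in 6 of the 9 groups, as the mean with its SD over 2 or 3 libraries. FOLH1, STEAP1 and STEAP2 stand above the other genes in LNCaP control (189 to 114 CPM per kilobase), and PSCA and CD276 lead in LAPC4 vector (34.0 and 31.8).

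With OC2 overexpressed in LNCaP, FOLH1, STEAP1, STEAP2 and CD276 fell against either reference. TMEFF2 rose 22.7-fold against control and fell 13.6-fold against shCon. Of the 7 targets tested against control, 7 were called at an adjusted p under 0.05 (edgeR quasi-likelihood test), 1 higher and 6 lower, where 60.8% of all tested genes were called, 31.6% higher and 29.3% lower. Their median log2 fold change was -0.66, beside 0.02 over all genes tested. Against shCon, 5 of 7 were called, all lower, where 64.0% of all genes were called (33.2% higher and 30.8% lower), and the median was -0.95 beside 0.01. CEACAM5 had too few counts for a test in LNCaP. The summed luminal markers stood at 4550 to 4680 CPM in OC2 OE, 7300 to 7500 in control and 5990 to 6340 in shCon. In these groups 12 or 13 of 13 were at 1 CPM or more and none at 0. Against control 1 of the 13 was called higher and 9 lower, and against shCon 4 higher and 7 lower. Their part in these falls was not tested. Against control, the calls of CD276 and DLL3 ended without OC2 OE replicate 2 (adjusted p = 0.0751 and 0.0879), and leaving out control replicate 1 also ended that of DLL3 (-0.22, adjusted p = 0.192), as did a fit with no filter on low counts (adjusted p = 0.118).

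In LAPC4, OC2 overexpression was followed by lower FOLH1, STEAP1, CD276 and TMEFF2 and higher STEAP2, DLL3 and CEACAM5. All 8 targets were tested and 7 were called, 3 higher and 4 lower, where 61.1% of all genes were called (32.1% higher and 29.0% lower), and the median log2 fold change was -0.16 beside 0.00 over all genes. PSCA did not pass the test. Basal epithelium markers moved in the same libraries, with a summed level of 1630 to 1650 CPM in OC2 OE against 508 to 592 in vector, none of the 8 at 0. Of the 8 basal markers, all tested, 6 were called higher and 1 lower. Their part in the changes of the targets was not tested.

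With the hairpin against OC2, CD276 and STEAP2 were higher and TMEFF2 and FOLH1 lower than in shCon. Of these, only CD276 kept its direction and call against control (log2 fold change 0.39). There STEAP2 was lower (-0.36) and TMEFF2 higher (4.48), and FOLH1 did not pass the test (0.00). Of 7 targets tested in shOC2 against shCon, 4 were called, 2 higher and 2 lower, where 54.1% of all genes were called (27.3% higher and 26.8% lower). The median log2 fold change was 0.02, beside 0.00 over all genes. In the same libraries, summed luminal markers stood at 8600 to 8620 CPM in shOC2 against 5990 to 6340 in shCon (10 of 13 higher, 2 lower, none at 0). Against control, at 7300 to 7500 CPM, 5 of 13 were higher and 5 lower. In shOC2 against control, 10759 of 16720 tested genes were called. Summed neuroendocrine markers stood at 113 to 121 CPM in shOC2, 33.1 to 41.7 in shCon and 64.4 to 66.0 in control. In each of these groups 3 of the 13 reached 1 CPM, with INSM1 and SNAP25 among those at 0 in shOC2. Of 3 neuroendocrine markers tested, 2 were higher than in shCon and 1 was higher than in control, with 0 lower. Of 13 androgen-induced genes, 13 were higher in shOC2 than in shCon, and against control 9 were higher and 1 lower. The part of these genes in the changes of the targets was not tested. With shOC2 replicate 1 left out, 2 were called, since FOLH1 (adjusted p = 0.0921) and STEAP2 (adjusted p = 0.0682) no longer passed, and without shOC2 replicate 2 FOLH1 did not (adjusted p = 0.0538).

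FOLH1 and STEAP2 were higher, and PSCA and TMEFF2 lower, in both drug arms than in vehicle. The combination against vehicle gave 6 calls of 7 tested, 3 higher and 3 lower, where 46.8% of all genes were called (23.2% higher and 23.6% lower), with a median log2 fold change of 0.16 beside 0.01. Enzalutamide against vehicle gave 5 calls of 7, 3 higher and 2 lower, where 70.4% of all genes were called (34.7% higher and 35.6% lower), with a median of -0.18 beside 0.01. The combination against enzalutamide gave 3 calls, all higher, where 61.9% of all genes were called (31.5% higher and 30.5% lower), with a median of 0.00 beside -0.02. The 3 comparisons share arms. KLK3, the androgen-induced gene for prostate-specific antigen, was 24.4-fold lower in the combination than in vehicle (68.0 ± 9.18 against 1660 ± 152 CPM, n = 3 each). Summed luminal markers stood at 6060 to 6650 CPM in vehicle, 4040 to 4780 with enzalutamide and 4470 to 4600 with the combination, none of the 13 at 0. These 13 include KLK3. Against vehicle, 4 were called higher and 7 lower with enzalutamide, and 2 higher and 7 lower with the combination. The part of these markers in the changes was not tested. The enzalutamide columns are whole counts and the other arms estimated counts, so enzalutamide and a different counting step cannot be told apart. In that table, 57 genes had at least 10 CPM in every vehicle and combination column and 0 in every enzalutamide column, and 3 genes showed the reverse. Without the enzalutamide column of lowest TMEFF2, the combination against enzalutamide gave 6 calls in place of 3, as STEAP1 (log2 fold change -0.22, adjusted p = 0.0139), DLL3 (-0.62, adjusted p = 0.00834) and TMEFF2 passed, and DLL3 also passed without combination replicate 2 (-0.65, adjusted p = 0.0326).

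**Figure D2:**
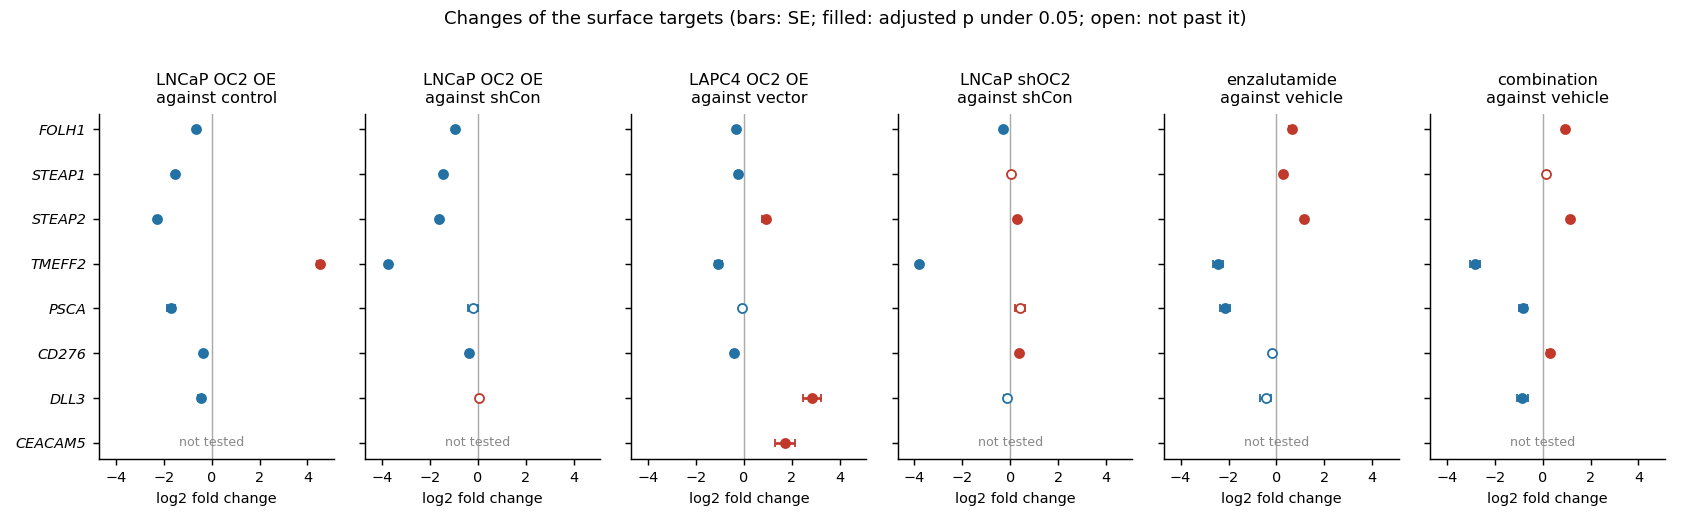
Log2 fold change of each target with its SE in 6 comparisons, filled where the edgeR adjusted p was under 0.05 and open where it was not. The points of STEAP1 and STEAP2 lie left of 0 in LNCaP OC2 OE against both references (-1.46 to -2.29), STEAP2 lies right of 0 in LAPC4 (0.90) and in both drug arms (1.15), and TMEFF2 changes side between the references of LNCaP OC2 OE (4.51 and -3.77).

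FOLH1 lies on chromosome 11 from 49146635 to 49208670, minus strand (hg38, GENCODE 29), with 3824 exon bases and none shared with another gene. In LNCaP it was counted at 702 and 733 CPM in control, 914 and 849 in shCon, 697 and 739 in shOC2, and 451 and 467 in OC2 OE. Both OC2 OE libraries lay below the other 6, while control and shOC2 overlapped. The fall was 1.58-fold against control (log2 fold change -0.66, SE 0.07, edgeR adjusted p = 2.17e-05) and 1.93-fold against shCon (-0.95, SE 0.06, adjusted p = 2.82e-07). FOLH1 was also 1.22-fold lower in shOC2 than in shCon (-0.29, SE 0.06, adjusted p = 0.00201), but shOC2 and control did not differ past the test (0.00, SE 0.07, adjusted p = 0.98), and shCon stood 1.22-fold above control (0.29, SE 0.07).

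In LAPC4, FOLH1 stood at 97.0, 99.7 and 111 CPM in vector and 84.6, 78.6 and 80.1 in OC2 OE, groups that did not overlap, and was 1.26-fold lower (log2 fold change -0.34, SE 0.07, adjusted p = 0.00213). The drug arms formed an order without overlap. Vehicle held 894, 949 and 863 CPM, enzalutamide 1580, 1340 and 1290, and the combination 1840, 1620 and 1780. FOLH1 was thus 1.56-fold higher with enzalutamide (0.64, SE 0.10, adjusted p = 0.00025) and 1.94-fold higher with the combination (0.95, SE 0.10, adjusted p = 6.34e-05) than with vehicle. The combination exceeded enzalutamide by 1.24-fold (0.31, SE 0.10, adjusted p = 0.0198), a call that ended with these arms fitted alone (adjusted p = 0.0567), without combination replicate 1 (adjusted p = 0.0619) and without the enzalutamide column at 1290 CPM (adjusted p = 0.0734). The limit on the counting step of the enzalutamide columns, given above, holds here too.

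FOLH1B, a transcribed pseudogene copy of FOLH1 on the same chromosome, held 0.0824 to 0.599 counts per 100 FOLH1 counts over the 9 groups, and summing both genes left each FOLH1 call in place. Reads of near-identical copies can be split by the counting, so FOLH1B itself is uncertain. A list of 7 genes held FOLH1 itself and its relatives, which include the transferrin receptors. In LNCaP OC2 OE, 6 were tested, and 3 rose and 3 fell against control, where 60.8% of all genes were called. Against shCon, where 64.0% were called, 1 rose and 4 fell. TFR2, the gene of transferrin receptor 2, stood at 3.30 ± 0.509 CPM in OC2 OE, between 17.6 ± 2.32 in control and 0.705 ± 0.296 in shCon. In the combination against vehicle, where 46.8% of all genes were called, 4 of 6 rose, FOLH1 among them, and 1 fell. The gene that fell was TFRC, transferrin receptor 1, which was 2.42-fold lower (151 ± 4.09 against 365 ± 23.9 CPM). NAALADL2, a FOLH1-like gene, was 2.20-fold lower in LAPC4 OC2 OE than in vector, and its direction in LNCaP OC2 OE depended on the reference (log2 fold change 0.65 against control and -0.63 against shCon).

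STEAP1 and STEAP2 are neighbours on the plus strand of chromosome 7, STEAP1 from 90154375 to 90164829 and STEAP2 from 90167590 to 90238137 (hg38, GENCODE 29), with 2760 bases between their annotated ends. Their windows before the RefSeq starts (GRCh38.p14, plus strand) are shown because both neighbours fell in LNCaP OC2 OE, while in LAPC4 they were called in opposite directions. Each window is the 250 bases before a RefSeq start, shortened where a GENCODE exon of the gene begins inside it, and both STEAP2 windows lie within the annotated span of that gene. Capitals mark motif matches.
STEAP1 start, chr7:90154219-90154374: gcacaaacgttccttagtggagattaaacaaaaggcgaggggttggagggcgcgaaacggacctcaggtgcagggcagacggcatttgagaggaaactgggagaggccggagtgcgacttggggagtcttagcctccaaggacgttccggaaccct
STEAP2 first start, chr7:90211490-90211685: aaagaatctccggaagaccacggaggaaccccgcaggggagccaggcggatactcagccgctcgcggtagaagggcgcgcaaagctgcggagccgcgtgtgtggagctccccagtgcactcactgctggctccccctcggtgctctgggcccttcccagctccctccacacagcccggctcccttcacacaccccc
STEAP2 second start, chr7:90213570-90213819: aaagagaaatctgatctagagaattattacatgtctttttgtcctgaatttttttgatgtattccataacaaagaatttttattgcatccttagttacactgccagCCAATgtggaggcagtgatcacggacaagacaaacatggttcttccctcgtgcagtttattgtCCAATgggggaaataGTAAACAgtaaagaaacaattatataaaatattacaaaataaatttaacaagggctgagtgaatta

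A set of 7 motifs was searched on both strands, namely the CCAAT box CCAAT, the E-box CACGTG, the GC box GGGCGG, the ONECUT forms ATCAAT and ATCGAT, the forkhead form TGTTTAC and the androgen receptor half-site AGAACA. The STEAP1 window (156 bases, 57.7% G or C) and the first STEAP2 window (196 bases, 67.9%) held none of these letters. Of 35116 RefSeq windows cut to 156 bases, 0.4% (ATCGAT) to 26.9% (GGGCGG) held the motifs, and of those cut to 196 bases 0.5% to 34.2%. The second STEAP2 window (250 bases, 32.8% G or C) held CCAAT at -144 and -81 and the forkhead letters, as GTAAACA, at -66, counted from the start to the leftmost base of the match. These matches do not overlap. CCAAT stands in 32.0% and TGTTTAC in 3.0% of all windows of 250 bases.

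STEAP2 showed the widest fall of the tested targets in LNCaP OC2 OE against control. Its libraries read 985 and 1000 CPM in control, 656 and 623 in shCon, 798 and 748 in shOC2, and 192 and 219 in OC2 OE, with no overlap between any 2 groups. The fall was 4.89-fold against control (log2 fold change -2.29, SE 0.08, adjusted p = 2.09e-08) and 3.13-fold against shCon (-1.64, SE 0.07, adjusted p = 2.26e-08). STEAP1 stood at 304 and 310 CPM in control, 311 and 286 in shCon, 301 and 301 in shOC2, and 104 and 114 in OC2 OE. The OC2 OE pair of STEAP1 lay far below the other 6 libraries, 2.85-fold below control (-1.51, SE 0.08, adjusted p = 1.97e-07) and 2.76-fold below shCon (-1.46, SE 0.07, adjusted p = 4.1e-08). With the hairpin, STEAP2 was 1.21-fold higher in shOC2 than in shCon (0.28, SE 0.06, adjusted p = 0.002) but 1.28-fold lower than in control (-0.36, SE 0.07, adjusted p = 0.000956), while STEAP1 gave 0.02 (SE 0.06, adjusted p = 0.807) against shCon.

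LAPC4 carried little of either gene, and STEAP2 was called higher and STEAP1 lower. STEAP2 read 8.10, 7.47 and 6.58 CPM in vector (643 counts in all) and 11.8, 13.4 and 16.2 in OC2 OE (1237 counts), groups that did not overlap, a rise of 1.87-fold (log2 fold change 0.90, SE 0.14, adjusted p = 0.000367). STEAP1 read 16.3, 15.3 and 18.2 CPM in vector and 14.4, 13.8 and 13.8 in OC2 OE, which also did not overlap, and was 1.19-fold lower (-0.25, SE 0.10, adjusted p = 0.0472). The STEAP1 call ended in 5 of 6 fits that left out a library (adjusted p = 0.0674 to 0.143), with the replicate block (adjusted p = 0.0863), with DESeq2 (adjusted p = 0.0613) and with no filter on low counts (adjusted p = 0.101).

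STEAP1B, a near-identical relative of STEAP1 at 22419444 to 22727613 on the minus strand of chromosome 7, moved much further in the same cells. It held 4, 5 and 4 counts in the LAPC4 vector libraries and 229, 240 and 244 in OC2 OE, 51.7-fold higher (log2 fold change 5.69, SE 0.20, adjusted p = 9.59e-09). Per 100 STEAP1 counts, STEAP1B held 0.9 in vector and 56.8 in OC2 OE, while every LNCaP group held 0.0679 to 0.234. Reads of copies this alike can be split by the counting, so both values are uncertain, and the sum of STEAP1 and STEAP1B was higher in LAPC4 OC2 OE (0.39, SE 0.09, adjusted p = 0.00403) where STEAP1 alone was lower. STEAP1B shares 14.8% of its exon bases with other genes, among them IL6 on the opposite strand, and no source used here says whether the counting used strand.

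Against vehicle, STEAP2 was called higher in both drug arms and STEAP1 with enzalutamide. STEAP2 read 705, 733 and 708 CPM in vehicle, 1580, 1540 and 1630 with enzalutamide and 1670, 1510 and 1570 with the combination. Both treated arms lay above every vehicle library and overlapped with each other, 2.21-fold above vehicle in each case (log2 fold change 1.15, SE 0.08, adjusted p = 5.83e-07 with enzalutamide and 4.23e-06 with the combination). The combination and enzalutamide differed by 0.00 (SE 0.08, adjusted p = 0.996). STEAP1 read 265, 288 and 274 CPM in vehicle, 290, 352 and 364 with enzalutamide, and 308, 288 and 325 with the combination. It was 1.22-fold higher with enzalutamide (0.29, SE 0.09, adjusted p = 0.0198), a call that ended in 4 of 9 fits that left out a library (adjusted p = 0.0604 to 0.0884), and the combination gave 0.16 (SE 0.09, adjusted p = 0.203), which of the alternatives run passed with these arms fitted alone (adjusted p = 0.0488) or without the enzalutamide column at 290 CPM (adjusted p = 0.0493).

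In the wider STEAP family, all 4 members tested in LNCaP OC2 OE fell against control, where 29.3% of all genes were called lower. Against shCon, where 30.8% were called lower, 4 of 4 fell. In LAPC4 OC2 OE, where 32.1% of all genes were called higher, 4 of 5 rose and STEAP1 fell, with the limits on the STEAP1 call given above. STEAP3, an endosomal metalloreductase, fell 2.16-fold in LNCaP OC2 OE against control (26.7 ± 0.924 against 57.2 ± 0.665 CPM, n = 2) and rose 2.14-fold in LAPC4 (28.7 ± 1.28 against 13.4 ± 1.44 CPM, n = 3). STEAP4, an androgen-induced metalloreductase, stood at 28.6 ± 0.635 CPM in shOC2 against 0.518 ± 0.0315 in shCon. In the drug table STEAP4 was at 1.02 ± 0.146 CPM in vehicle, 0.123 ± 0.0602 with enzalutamide and 0.0453 ± 0.0785 with the combination, the direction opposite to that of STEAP2.

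**Figure D3:**
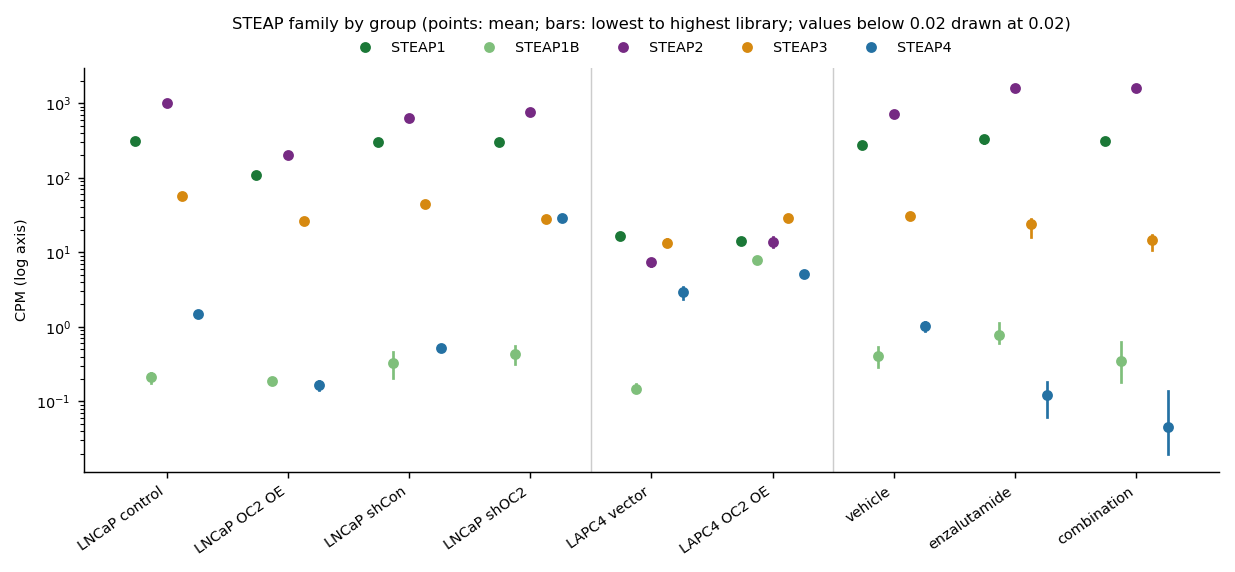
Level of the STEAP genes in CPM (log axis) in the 9 groups, as the mean with a bar from the lowest to the highest library. STEAP1 and STEAP2 are lower in LNCaP OC2 OE (109 and 205 CPM) than in every other LNCaP group, STEAP1B is at 7.95 CPM in LAPC4 OC2 OE with means under 1 CPM elsewhere, and STEAP4 reaches 28.6 CPM in shOC2.

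PSCA, at 142670308 to 142682724 on the plus strand of chromosome 8, shares 20.9% of its exon bases with JRK on the opposite strand, so part of its count could belong to that gene. In LNCaP the control libraries stood apart, with PSCA at 11.2 and 9.43 CPM (232 and 212 counts), while shCon held 3.14 and 4.20, shOC2 4.01 and 5.65, and OC2 OE 3.32 and 3.03. The OC2 OE, shCon and shOC2 levels overlapped in part. PSCA was thus 3.28-fold lower in OC2 OE than in control (log2 fold change -1.71, SE 0.17, adjusted p = 1.66e-05), but gave -0.21 against shCon (SE 0.21, adjusted p = 0.388). It gave 0.41 in shOC2 against shCon (SE 0.22, adjusted p = 0.147), and shCon itself was 2.82-fold below control (-1.50, SE 0.18, adjusted p = 0.000124).

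LAPC4 held more PSCA, at 51.9, 62.4 and 65.8 CPM in vector and 61.2, 55.6 and 55.2 in OC2 OE, which overlapped (log2 fold change -0.07, SE 0.09, adjusted p = 0.556). In the drug table, all 3 arms were apart, vehicle at 9.89, 8.03 and 9.75 CPM, enzalutamide at 1.55, 2.36 and 2.31, and the combination between them at 4.76, 5.74 and 5.22. PSCA fell 4.43-fold with enzalutamide (-2.15, SE 0.19, adjusted p = 3.83e-06) and 1.76-fold with the combination (-0.82, SE 0.18, adjusted p = 0.00438), and the combination stood 2.52-fold above enzalutamide (1.33, SE 0.19, adjusted p = 0.000168). Both values that involve enzalutamide carry the limit on its counting step given above. Of the LY6 family, to which PSCA belongs, 4 of 7 tested genes fell in LNCaP OC2 OE against control and 1 rose, where 60.8% of all genes were called. Against shCon 3 fell and 1 rose, where 64.0% were called, while in LAPC4 5 of 9 rose and 2 fell, where 61.1% were called. LY6K, a cancer-testis gene, reached 51.4 ± 0.387 CPM in LAPC4 OC2 OE from 0.092 ± 0.020 in vector, and CD59, an inhibitor of complement, rose 5.01-fold. CD59 was also 2.31-fold higher in the combination than in vehicle, where 5 of 8 LY6 genes rose and 2 fell, and 46.8% of all genes were called.

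CEACAM5, on chromosome 19 from 41708585 to 41729798 (plus strand), was close to the detection limit throughout. It had 0 counts in all 4 libraries of LNCaP control and OC2 OE, which allows a level of up to 0.129 to 0.138 CPM by counting error alone. The shCon libraries held 1 and 0 counts, shOC2 3 and 1, and no library of the drug table held more than 4. In LAPC4, the vector libraries held 6, 6 and 4 counts and OC2 OE 27, 16 and 12, which did not overlap. That is 0.184 ± 0.0385 against 0.611 ± 0.252 CPM (n = 3 each), 3.28-fold higher (log2 fold change 1.71, SE 0.41, adjusted p = 0.00491). Part of the count is uncertain, because 16.2% of its exon bases are shared with AC243967.1 on the same strand. CEACAM6, an adhesion gene of the same family, rose 2.09-fold in these cells to 5.85 ± 0.491 CPM. Of 3 tested CEACAM genes 2 rose and 1 fell, where 61.1% of all genes were called.

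CD276, on chromosome 15 from 73683966 to 73714518 (plus strand) and 5542 exon bases, stood at 187 ± 16.2 CPM in LNCaP control and 176 ± 2.81 in LAPC4 vector. In LNCaP it read 198 and 175 CPM in control, 185 and 202 in shCon, 245 and 244 in shOC2, and 154 and 145 in OC2 OE. Control and shCon overlapped, shOC2 lay above them and OC2 OE below. CD276 was 1.27-fold lower in OC2 OE than in control (log2 fold change -0.34, SE 0.08, adjusted p = 0.00484) and 1.30-fold lower than in shCon (-0.38, SE 0.06, adjusted p = 0.000286). With the hairpin it was 1.27-fold higher than in shCon (0.35, SE 0.05, adjusted p = 0.0004) and 1.31-fold higher than in control (0.39, SE 0.08, adjusted p = 0.00117).

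LAPC4 showed the same direction, with CD276 at 173, 176 and 179 CPM in vector and 141, 123 and 128 in OC2 OE, 1.35-fold lower (log2 fold change -0.43, SE 0.07, adjusted p = 0.000388). The drug arms held CD276 at 260, 261 and 264 CPM in vehicle, 199, 244 and 249 with enzalutamide and 297, 369 and 304 with the combination, so that no arm overlapped another. The combination exceeded enzalutamide by 1.40-fold (0.48, SE 0.11, adjusted p = 0.00282), with the limit on the enzalutamide columns given above. Against vehicle it was 1.23-fold higher (0.30, SE 0.11, adjusted p = 0.0398), a call lost in 5 of 9 fits that left out a library (adjusted p = 0.0522 to 0.147) and with no filter on low counts (adjusted p = 0.0526), and enzalutamide gave -0.18 (SE 0.11, adjusted p = 0.157). Of the B7 family, the co-stimulatory and checkpoint ligands, 2 of 5 tested genes rose in the combination against vehicle and 0 fell, where 46.8% of all genes were called. CD276 was 1 of these 2, and CD274, which encodes the checkpoint ligand PD-L1, was the other, at 67.0 ± 11.3 CPM against 3.33 ± 0.332. NCR3LG1, a ligand of natural killer cells, rose in LAPC4 OC2 OE to 19.5 ± 2.97 CPM from 1.05 ± 0.207. In that comparison 4 of 6 B7 genes rose and 2 fell, where 61.1% of all genes were called.

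DLL3, on chromosome 19 from 39498895 to 39508481 (plus strand), was moderate in LNCaP and almost absent from LAPC4. LNCaP libraries held DLL3 at 27.6 and 20.7 CPM in control, 17.7 and 16.8 in shCon, 14.9 and 16.0 in shOC2, and 19.2 and 16.8 in OC2 OE. Control was higher than the other groups, which lay close together. Against control, DLL3 was 1.35-fold lower in OC2 OE (log2 fold change -0.44, SE 0.14, adjusted p = 0.0213), with the limits on that call given above, and against shCon it gave 0.05 (SE 0.10, adjusted p = 0.645). Neuroendocrine markers moved in those libraries, from a summed 64.4 to 66.0 CPM in control and 33.1 to 41.7 in shCon to 172 to 182 in OC2 OE, with CHGB, INSM1 and PCSK1 at 0 in control and shCon and none of the 13 at 0 in OC2 OE. Of 8 of these markers tested, 7 were higher and 1 lower against either reference. Of all genes, 60.8% were called against control and 64.0% against shCon. The part of these markers in the level of DLL3 was not tested.

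In LAPC4, DLL3 rose from 7, 3 and 2 counts in vector to 32, 27 and 32 in OC2 OE, that is, from 0.137 ± 0.0898 to 1.01 ± 0.0849 CPM, 7.16-fold (log2 fold change 2.84, SE 0.37, adjusted p = 0.000111). Its level after that rise stood below that of every LNCaP library. The summed neuroendocrine markers stood at 57.3 to 62.5 CPM in LAPC4 OC2 OE and 14.1 to 15.7 in vector. In both groups 4 of 13 were at 1 CPM or more, and INSM1 was at 0 in OC2 OE. Of 7 of these markers tested, 4 were higher and 3 lower, where 61.1% of all genes were called. Their part in the rise of DLL3 was not tested. In the drug table DLL3 read 16.6, 16.9 and 16.0 CPM in vehicle, 8.28, 13.8 and 14.4 with enzalutamide, and 7.34, 12.2 and 8.03 with the combination. Vehicle lay above both treated arms, which overlapped. The combination was 1.80-fold lower than vehicle (-0.85, SE 0.23, adjusted p = 0.0131), a call that ended without combination replicate 1 (adjusted p = 0.0544) or 3 (adjusted p = 0.052), and enzalutamide gave -0.44 (SE 0.23, adjusted p = 0.107). The summed neuroendocrine markers stood at 375 to 488 CPM with enzalutamide and 468 to 569 with the combination against 46.2 to 49.3 in vehicle. Of 3 of these markers tested, 2 were higher with enzalutamide, where 70.4% of all genes were called. With the combination 3 were higher, where 46.8% of all genes were called, and 0 were lower in either arm. The sum thus moved in the other direction from DLL3, and the part of these markers in its level was not tested.

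Notch ligands and receptors, DLL3 included, moved in both directions. Of 9 tested in LNCaP OC2 OE against control, 1 rose and 6 fell, where 60.8% of all genes were called. Of 10 tested against shCon, 2 rose and 3 fell, where 64.0% were called. NOTCH3, a receptor, was 3.48-fold lower than in control and 3.28-fold lower than in shCon. JAG1, a ligand, stood at 10.2 ± 1.19 CPM against 32.0 ± 1.22 in control and 17.0 ± 1.22 in shCon, while NOTCH1, a receptor, was 1.97-fold lower than in control and 1.21-fold higher than in shCon. In LAPC4, where 61.1% of all genes were called, 4 of 9 rose and 4 fell, with NOTCH3 at 103 ± 7.05 CPM in OC2 OE against 278 ± 24.4 in vector. JAG1 stood at 70.6 ± 8.69 CPM in shOC2 against 17.0 ± 1.22 in shCon, where 4 of 10 rose and 1 fell, and 54.1% of all genes were called. Of the Notch target genes, 1 of 6 rose and 4 fell in LAPC4 OC2 OE. In the combination against vehicle, where 46.8% of all genes were called, 2 of 5 rose and 3 fell. NRARP, a feedback inhibitor of Notch, was among those that fell (28.4 ± 1.36 against 78.7 ± 2.52 CPM).

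TMEFF2, on chromosome 2 from 191949043 to 192195709 (minus strand, 6632 exon bases, none shared), differed most of all targets between the LNCaP references. It read 1.60 and 1.38 CPM in control (33 and 31 counts), 474 and 455 in shCon, 33.0 and 33.5 in shOC2, and 34.6 and 33.9 in OC2 OE. The shCon libraries were 311-fold above control (log2 fold change 8.28, SE 0.12, adjusted p = 1.07e-09), a difference larger than that of all but 0.399% of tested genes. OC2 OE and shOC2 both stood between those references and close to each other. TMEFF2 was therefore 22.7-fold higher in OC2 OE than in control (4.51, SE 0.13, adjusted p = 6.9e-09) and 13.6-fold lower than in shCon (-3.77, SE 0.06, adjusted p = 3.19e-11). In shOC2 it was 13.9-fold lower than in shCon (-3.80, SE 0.06, adjusted p = 1.91e-10) and 22.3-fold higher than in control (4.48, SE 0.13, adjusted p = 8.13e-10), so the direction in either experiment was set by the reference.

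In LAPC4, TMEFF2 read 15.5, 19.0 and 24.1 CPM in vector and 9.47, 9.36 and 8.88 in OC2 OE, which did not overlap, a fall of 2.11-fold (log2 fold change -1.08, SE 0.15, adjusted p = 0.000178). In the drug table the vehicle libraries held 229, 237 and 215 CPM, where the separately scaled LNCaP table gave 464 ± 13.5 in shCon and 1.49 ± 0.154 in control (n = 2 each). Enzalutamide held 25.4, 51.0 and 47.8 CPM and the combination 32.7, 31.6 and 31.4, with every treated library below every vehicle library. TMEFF2 fell 5.48-fold with enzalutamide (-2.45, SE 0.21, adjusted p = 2.92e-06) and 7.11-fold with the combination (-2.83, SE 0.21, adjusted p = 7.76e-06). The combination gave -0.38 against enzalutamide (SE 0.21, adjusted p = 0.135), and without the enzalutamide column at 25.4 CPM it gave -0.63 (SE 0.06, adjusted p = 7.57e-06).

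**Figure D4:**
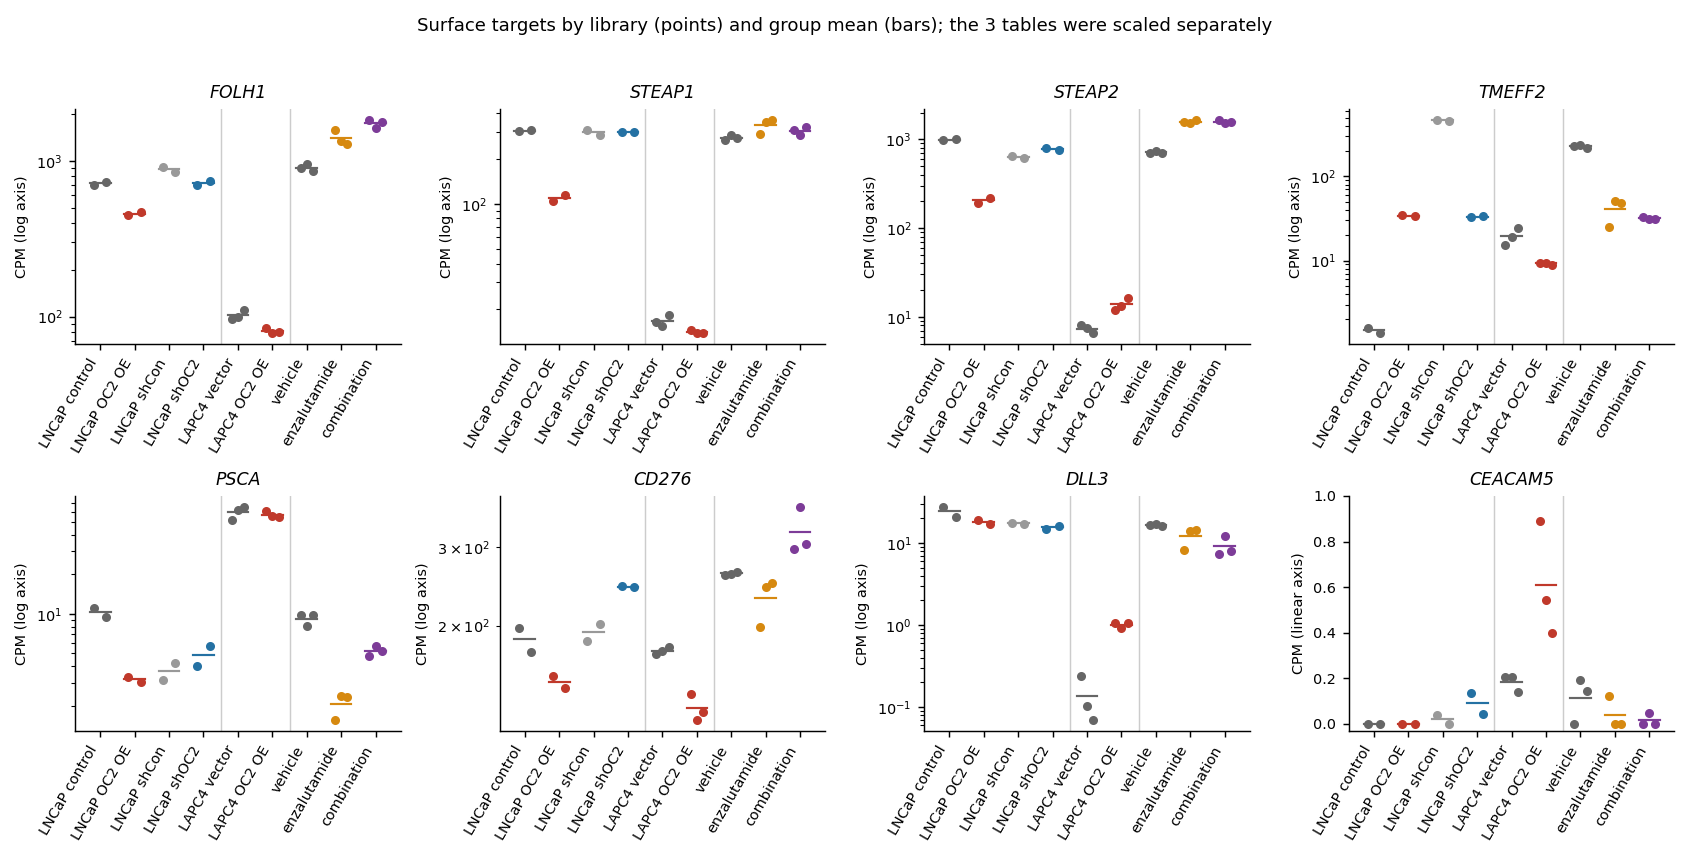
CPM of each target in every library (points; log axes other than the linear one of CEACAM5) with the group mean as a bar, for the 9 groups of 3 separately scaled tables. TMEFF2 spans 1.38 to 474 CPM over the LNCaP groups, STEAP2 is lowest in LNCaP in the OC2 OE libraries (192 and 219 CPM), and CEACAM5 stays under 1 CPM.

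The response to OC2 was compared between lines with an interaction term, which is the log2 fold change in LAPC4 OC2 OE against vector minus that in LNCaP OC2 OE against control. ONECUT2 itself rose 57.7-fold in LAPC4 and 11.4-fold in LNCaP (interaction 2.34, SE 0.17, edgeR adjusted p = 1.12e-07). Line, medium, R1881, kind of count and size of the OC2 rise differed together, so they cannot be told apart. Of 7 targets tested, 6 differed, where 49.5% of 19633 genes did (25.4% higher and 24.1% lower in LAPC4). STEAP2 (3.19, SE 0.17, adjusted p = 4.13e-09) and DLL3 (3.27, SE 0.40, adjusted p = 1.45e-05) had the widest gaps towards a higher value in LAPC4, followed by PSCA (1.65, SE 0.19), STEAP1 (1.26, SE 0.12) and FOLH1 (0.32, SE 0.11, adjusted p = 0.0228). The FOLH1 call ended in 4 fits that left out a library (adjusted p = 0.0545 to 0.074). TMEFF2 gave -5.59 (SE 0.26, adjusted p = 1.18e-09) and CD276 -0.09 (SE 0.11, adjusted p = 0.536). With shCon as the LNCaP reference, where 49.3% of all genes differed, STEAP2 (2.49, SE 0.16), DLL3 (2.72, SE 0.36), STEAP1 (1.15, SE 0.12) and FOLH1 (0.55, SE 0.11) kept direction and call, PSCA gave 0.09 (SE 0.22, adjusted p = 0.811) and TMEFF2 turned to 2.63 (SE 0.19, adjusted p = 1.24e-07). CEACAM5 is left out, since LNCaP control and OC2 OE had 0 counts.

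Across the 23 libraries, with log2(CPM + 1) centred within each table, STEAP1 and STEAP2 had a Pearson r of 0.76, FOLH1 an r of 0.66 with each of them, and FOLH1 and DLL3 an r of -0.63. These libraries share groups and scaling, so the values are descriptions. Among 12931 genes, the closest pattern to STEAP1 was that of SLC44A4 (0.96), to PSCA that of VPS37B (0.97), to TMEFF2 that of TCTN2 (0.96) and to CD276 that of TTYH3 (0.95). For DLL3 it was MICALL1 (0.93), for STEAP2 NXN (0.92) and for FOLH1 GNG7 (0.92).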

How the data were processed

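RNA was sequenced from 23 libraries of LNCaP and LAPC4 cells. Per the submitters' processing notes, FastQC 0.9.0, Bowtie2 and hg38 were used, and no counter, annotation release, strand setting or filter is named in those notes. The authors deposited whole-number counts per gene for LAPC4 and for the enzalutamide columns. The authors deposited estimated counts, rounded here to whole numbers, for the other LNCaP groups. The enzalutamide columns could be tied to their group but not to a numbered sample. Identifiers matched a current symbol for 99.5% of LNCaP lines, 98.6% of LAPC4 lines and 62.9% of lines in the drug experiment. Libraries held 20964025 to 30465978 counts, so a count of 0 allows up to 3 counts by counting error alone.

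Each comparison was fitted on its own groups (the 3 drug arms together) with edgeR 4.0.16 in R 4.3.3: TMM scaling, filterByExpr, quasi-likelihood F-test and Benjamini-Hochberg adjustment over all tested genes, with a threshold of 0.05. Standard errors came from the F statistic. CPM levels use TMM-scaled library sizes within each table, and CPM per kilobase divides by merged GENCODE 29 exon length. Members and gene lists were chosen with earlier results of these data known. All 8 targets are named in each comparison, then ONECUT2, the near copies, up to 3 called genes per list with the largest change and at least 5 CPM, and for 7 targets the gene of most similar pattern by Pearson r of log2(CPM + 1). Named outside that rule are STEAP4 in the drug experiment and the overlapping genes IL6, JRK and AC243967.1. Same-numbered libraries deviated together in combination and vehicle (correlations 0.15, 0.17 and 0.14) and in LNCaP OC2 OE and control (0.33). The main fits did not pair libraries, and pairing by number entered only through the replicate block. Alternatives were DESeq2 1.42.0, its size factors in edgeR, no filter, a replicate block, the other LNCaP reference, summed copies and leaving out each library. Promoter windows are from RefSeq (GRCh38.p14). Replicate libraries differed by more than sampling noise in every pair.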

Additional observations from a re-analysis of the deposited data

Results flagged for a closer look

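The response to OC2 overexpression differed between LAPC4 and LNCaP for 6 of 7 tested targets by an interaction term (edgeR, adjusted over all tested genes). Of all tested genes, 49.5% differed. Values are LAPC4 minus LNCaP on the log2 scale with control as the LNCaP reference. Line, medium, R1881, kind of count and size of the OC2 rise cannot be told apart in this term. STEAP2 differed by 3.19 and STEAP1 by 1.26, the pair of neighbouring genes that fell in LNCaP. DLL3 differed by 3.27, resting on 12 counts in all in LAPC4 vector. FOLH1 differed by 0.32, PSCA by 1.65 and TMEFF2 by -5.59. With shCon as the LNCaP reference, PSCA gave 0.09 (adjusted p = 0.811) and TMEFF2 gave 2.63 (adjusted p = 1.24e-07), so these differences moved with the reference, and the other 4 kept their direction and their call.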

How the results depend on the processing

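Over all alternatives, 753 fold changes of targets, near copies and ONECUT2 kept direction and side of the threshold, 43 lost the call, 7 gained it and 8 turned direction, and of the counts of calls 195 stayed within 1.5 times and 5 did not. With shCon as reference for LNCaP OC2 OE, DLL3 gave 0.05 and TMEFF2 -3.77. With control as reference for shOC2, FOLH1 gave 0.00, STEAP2 -0.36, PSCA -1.09 and TMEFF2 4.48, and with shCon as LNCaP reference the interaction of TMEFF2 was 2.63. With STEAP1 and STEAP1B summed, LAPC4 STEAP1 gave 0.39. The cause of these turns was not tested. Leaving out each library gave these ranges of targets called: 5 to 7 for LNCaP OC2 OE, 6 to 7 for LAPC4 OC2 OE, 2 to 4 for shOC2, 3 to 5 for shCon against control, 4 to 7 for the combination, 4 to 5 for enzalutamide, 2 to 6 for the combination against enzalutamide and 5 to 6 for the interaction. Genes called in shOC2 against shCon ranged from 5076 to 7863, beside 8969 with all libraries, and the calls fell most without shOC2 replicate 1 or 2 (5076 and 5524).

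The replicate block, which pairs samples by number, gave 7 targets and 11256 genes called for LNCaP OC2 OE, 6 and 9808 for LAPC4 OC2 OE, 4 and 8521 for shOC2, 5 and 9172 for shCon against control, and 6 and 9377 for the combination. It ended the STEAP1 call in LAPC4 and changed no other call of a target. Same-numbered libraries correlated at 0.33 in LNCaP OC2 OE and control, at 0.11, -0.14 and -0.16 in LAPC4, at -0.01 in shOC2 and shCon and at -0.12 in shCon and control. For the last, a crossed pairing chosen after seeing the data gave 5 targets and 9872 genes. Depth limits CEACAM5 in every group and DLL3 in LAPC4 vector.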

Other observations

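Among 30 other surface targets of cancer therapy, chosen with earlier results of these data known, 4 of 20 tested rose and 12 fell in LNCaP OC2 OE against control, where 60.8% of all genes were called. Against shCon, 7 of 21 rose and 11 fell, where 64.0% were called. SEZ6, a neuronal membrane protein gene, stood at 30.2 ± 0.864 CPM (SD, n = 2) against 0.390 ± 0.141 in control and 0.166 ± 0.0579 in shCon. GRPR, the bombesin receptor gene, stood at 6.40 ± 0.323 CPM against 0.544 ± 0.427 in control and 0.269 ± 0.145 in shCon. SLC44A4, a choline transporter gene, went the other way, with 3.39 ± 0.496 CPM against 182 ± 20.8 in control and 89.9 ± 6.39 in shCon. In LAPC4 OC2 OE, where 61.1% of all genes were called, 6 of 21 rose and 10 fell, among them CDCP1, a transmembrane glycoprotein gene that rose 2.35-fold (357 ± 7.31 against 152 ± 4.50 CPM, n = 3), and ERBB3, a receptor of the EGF receptor family that fell 2.65-fold.

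In the drug table, 8 of 19 rose and 5 fell in the combination against vehicle, where 46.8% of all genes were called, 23.2% higher and 23.6% lower. TNFRSF10B, a death receptor gene, stood at 87.0 ± 4.91 CPM in the combination against 175 ± 1.56 in vehicle and 182 ± 25.0 with enzalutamide (n = 3 each). Of 13 androgen-induced genes, 12 fell and 1 rose in the same comparison.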
